A study of Mus musculus with 24 samples.

Results

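The 42 genes described here encode proteins of the large (60S) subunit of the cytosolic ribosome. They were taken from the 23364 genes of the count tables by a list of names. The rule itself uses no measured value, but the list was drawn up with earlier results of these data known. The list leaves out Rpl22, Rpl36a, Rpl39 and the paralogues of 60S proteins. RNA was sequenced in 24 libraries of blood-forming cells, taken by flow cytometry from marrow of C57BL/6 mice 8 to 12 weeks old. Haematopoietic stem cells (HSC) and MPP1 and MPP2 multipotent progenitors were all lineage-negative, Kit+, Sca1+, CD150+ and Flt3-. HSC were CD34-CD48-, MPP1 were CD34+CD48- and MPP2 were CD34+CD48+. KO mice were Mysm1 fl/fl CreERT2 animals dosed with tamoxifen 8 times in 16 days, each dose being 0.15 mg/g. Het mice were Mysm1 +/fl CreERT2 animals given the same tamoxifen, so they too carried Cre and 1 deletable allele. Sham mice, labelled Mysm1-WT, were Mysm1 fl animals given corn oil alone, and their labels name no CreERT2. Each population had 3 KO, 3 Het and 2 Sham libraries. Marrow of several mice of both sexes was pooled for each library, so the p-values measure the spread between pools. The labels do not give the promoter that drives CreERT2. Mysm1 encodes a histone H2A deubiquitinase, and the series asks whether it maintains ribosomal protein gene expression in stem cells.

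Ribosomal proteins of the large subunit fold around the 28S, 5.8S and 5S rRNAs to form the peptidyl transferase centre, the exit tunnel of the nascent chain and the stalk that recruits translation factors. Each protein is normally present as a single copy per subunit, apart from the paired stalk proteins Rplp1 and Rplp2, and their mRNAs are among the most abundant of dividing cells. Haploinsufficiency of several of the genes causes Diamond-Blackfan anaemia, and free Rpl5 and Rpl11 bind Mdm2, the ubiquitin ligase that restrains p53.

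Library totals ran from 18823970 to 53196620 counts, and 15740 to 21150 genes had a count. The lowest numbers of detected genes were 15740 in HSC KO replicate 1 and 15932 in HSC Het replicate 2_3. The members held 3.28% to 6.13% of the counts of a library. Mysm1 had 96.3 to 121 CPM (the count normalized to the TMM-scaled library size) in the HSC KO libraries against 109 to 138 in HSC Het. In MPP1 it had 76.7 to 119 against 115 to 118, and in MPP2 88.1 to 102 against 98.5 to 112. KO and Het overlapped in each population. The deletion removes exon 3 and the count covers the whole gene, so this count does not check the labels. Of the sort markers, Cd48 had 13.8 to 56.9 CPM in the MPP2 libraries and at most 2.81 in any HSC or MPP1 library, but did not separate HSC from MPP1. Cd34 had 44.1 to 106 CPM in HSC and 119 to 215 in MPP1. In MPP2, sorted as CD34+, it had 51.5 to 104 in Sham, within the HSC range, and 67.6 to 272 in the other arms. Ly6a, which encodes Sca1, had 0.825 to 8.48 CPM in MPP2 against 6.87 to 26.7 in HSC and MPP1, and Flt3, absent from the surface of all sorted cells by the gate, had 38.8 ± 51.4 CPM (SD, n = 3) in MPP2 Het against means of 6.92 to 24.9 in the other groups. The RNA of these genes thus did not follow the gates in every MPP2 library. Within MPP2, Cd48 had 34.0 to 56.9 CPM in KO against 13.8 to 24.1 in Het. The listed sort markers Slamf1 (37.4 to 51.3 against 20.2 to 27.5) and Ptprc (264 to 287 against 212 to 239) were also apart. Kit, Ly6a, Flt3 and Cd34 overlapped between KO and Het there. The part of such differences in the members' changes was not tested.

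Among the members, 39 had a mean of at least 4529 counts per library, and 3 lay far below. Rpl30, which sits at the subunit interface, had 22 to 173 counts and Rpl34 had 21 to 169. Rpl26, a protein near the exit tunnel and a Diamond-Blackfan anaemia gene, had 0 counts in 21 of 24 libraries and at most 4 in the rest. It did not pass the filter on low counts, so 41 members were tested. The same 3 genes are absent from the normalized matrix of 12186 genes that the authors deposited, which holds the other 39. As processed copies of ribosomal protein genes are common, each transcript was searched in the mm9 genome in windows of 50 bases. Of the windows, 81.8% of Rpl26, 44.6% of Rpl30 and 44.7% of Rpl34 had an identical copy elsewhere. The other members had from 7.87% (Rpl8) to 95.2% (Rpl9), so this share alone did not set the 3 apart. How reads with several matches were counted is not given in the sources used here, and its part in these low values was not tested. The same limit holds for the genes named below, such as Rpl13 (86.5%), Rpl35a (76.7%) and Rpl37a (51.0%).

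Per kilobase of exon, the stalk proteins Rplp2 and Rplp1 led, while Rpl12 and Rplp0, also of the stalk, ranked 11 and 17 in HSC Het. In HSC Het, Rplp2 had 4954 ± 689 RPKM (CPM per kilobase, mean ± SD, n = 3), Rplp1 4088 ± 803 and Rpl13a, an outer protein of the subunit, 2594 ± 457. Rplp2 lay above Rplp1 in each of the 3 libraries, at 1835, 2335 and 2385 CPM against 1480, 2106 and 2154. Its exon length was the shorter, 441 against 468 bases. With the length of the longest transcript in place of the exon length, Rplp2 came to 2266 RPKM, below Rplp1 at 3865, so that the order at the top depends on the length used. The lowest levels were those of Rpl26, with 0 counts in all 3 HSC Het libraries (a count of 0 allows up to 3 counts in each), of Rpl30 with 2.44 ± 1.2 and of Rpl34 with 2.54 ± 1.7. Next came Rpl31 with 122 ± 4.0, Rpl38 with 143 ± 14.6 and Rpl15 with 182 ± 18.9. From Rplp2 to Rpl31 the 39 well-counted members spanned 40.6-fold. With the longest transcript, Rpl31 came to 401 and Rpl38 to 388, Rpl18 became the lowest well-counted member at 139 (613 by exon length), and the span was 27.7-fold over 38 members. Their order was much alike in all groups: Spearman's rho between HSC Het and each of the other 8 groups was 0.939 to 0.988 over these 39 genes, which are not independent replicates and share their gene lengths.

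**Figure D1:**
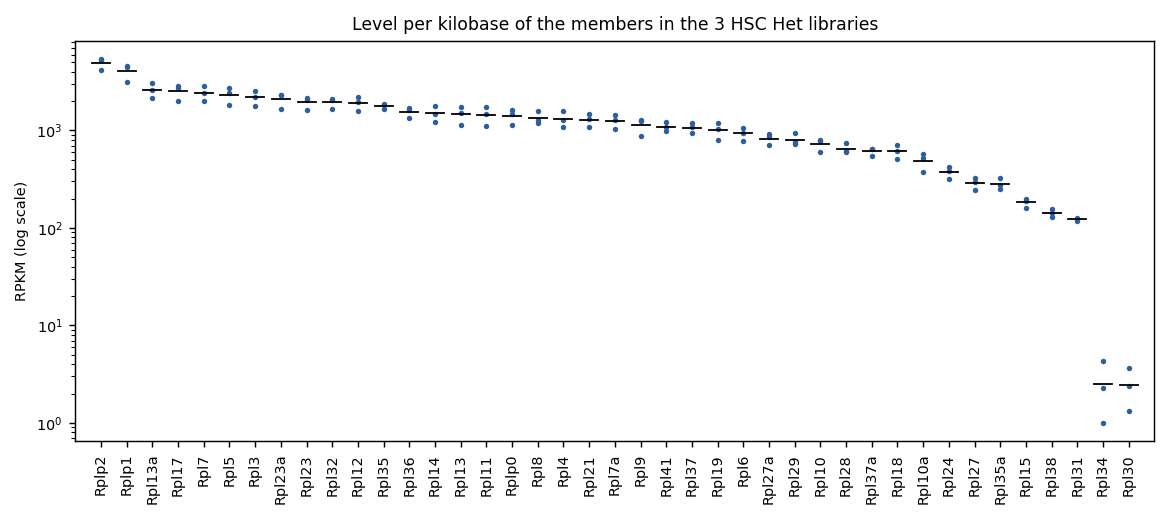
Level of 41 members in HSC Het, in RPKM on a log axis, with points for the 3 libraries and a bar for their mean; Rpl26 had 0 counts and is not drawn. The levels decline without a break from Rplp2 (4954) to Rpl31 (122), and Rpl34 (2.54) and Rpl30 (2.44) sit far below.

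Summed over the 42 members, the 3 HSC KO libraries held 35441, 35343 and 40093 CPM and the 3 HSC Het libraries 39263, 49245 and 54338. The lowest Het library, replicate 1, lay below the highest KO library. HSC Sham libraries held 39145 and 55054. In MPP1 the sum was 34759 to 42442 CPM in KO, 39970 to 45855 in Het and 36958 to 42563 in Sham. In MPP2 it was 36019 to 43025 in KO, 39406 to 44497 in Het and 47143 to 53543 in Sham, so that only the MPP2 Sham libraries stood clear of the other arms there.

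**Figure D2:**
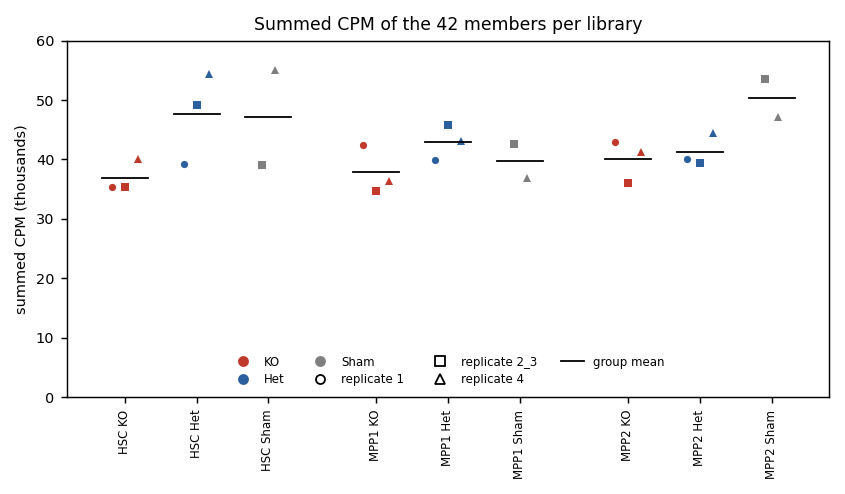
Summed CPM of the 42 members in each library (axis from 0, each unit being 1000 CPM), by population and arm, with marks for the replicate and a bar for the group mean. KO and Het overlap in every population, and the 3 HSC KO libraries lie between 35343 and 40093.

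Loss of Mysm1 was compared with the tamoxifen-treated Het control in each population and on average over the 3, with equal weights. On average, 17 of the 41 tested members were lower in KO and 0 higher (edgeR quasi-likelihood test, two-sided, Benjamini-Hochberg adjusted p under 0.05 over 21456 genes), where 1.41% of all genes were called lower. The 17 fell by 0.30 to 0.76 on the log2 scale. The median over the 41 members was -0.20 against -0.05 over all genes. Rpl37a fell the most, by 0.76 ± 0.09 (SE; adjusted p = 2.56e-06), then Rpl13 by 0.60 ± 0.09 (0.000161), Rpl35a by 0.55 ± 0.09 (0.000333) and Rpl23 by 0.52 ± 0.09 (0.000529). The other 13 were Rpl9, Rpl17, Rpl7, Rpl38, Rpl36, Rpl5, Rpl37, Rpl35, Rpl29, Rpl24, Rpl32, Rpl10a and Rpl6. All 17 had a log2 change below 0 in each of the 3 populations taken singly, up to -0.40 in HSC, -0.25 in MPP1 and -0.06 in MPP2. The 17 were picked by the mean of these same 3 changes, so the shared sign is in part built in. The 24 members that did not pass ranged from -0.29 to 0.18, the highest being Rpl28 at 0.18 ± 0.09 (adjusted p = 0.24). The count was 11 (0.711% of all genes lower) without HSC KO replicate 1 and HSC Het replicate 2_3, the libraries with the fewest genes. The fit takes libraries of different populations as independent, but same-numbered KO libraries of different populations deviated together in part, with correlations of 0.36 to 0.51 for replicate 2_3, 0.20 to 0.38 for replicate 1 and -0.03 to 0.05 for replicate 4. With same-numbered libraries of an arm as a random block in limma, an alternative added after the values were seen, 13 members were lower (0.55% of all genes), against 19 (1.6%) in limma without the block, and of the 17 Rpl24, Rpl10a, Rpl32 and Rpl6 no longer passed.

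**Figure D3:**
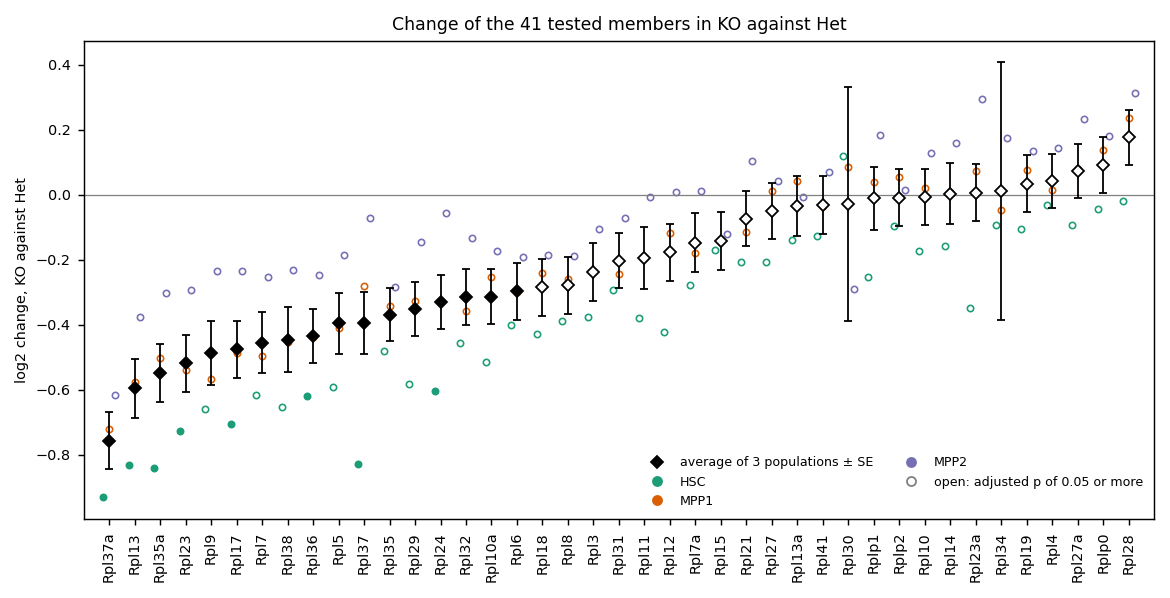
log2 change in KO against Het of the 41 tested members, ordered by the average over populations (diamonds, ± SE), with circles for HSC, MPP1 and MPP2; filled symbols have an adjusted p under 0.05. Changes run from -0.76 for Rpl37a to 0.18 for Rpl28 on average; the filled circles are the 8 members called in HSC.

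In HSC alone, 8 members fell and 0 rose, where 0.294% of all genes were called lower. Some settings called more, 15 with RLE scaling (0.41% of all genes), 17 with DESeq2 (1.19%) and 23 with the deposited matrix (2.18%). A fit of HSC alone called fewer, 4 (0.42%), and leaving out libraries also moved the count, as given below. The log2 change was below 0 for 40 of 41, with a median of -0.38 against 0.03 over all genes. In 21 of 41 members every KO library lay below every Het library, as in 4.48% of all genes. Rpl37a, a zinc-binding protein of the subunit body (chromosome 1, 72757834 to 72760383, plus strand, mm9), had 186, 182 and 200 CPM in KO against 323, 380 and 380 in Het and 284 and 309 in Sham. The KO libraries were close to each other and lay below all 5 controls. Its level in KO was 52.4% of Het, a fall of 0.93 ± 0.15 on the log2 scale (adjusted p = 0.0031). Rpl35a, one of the Diamond-Blackfan anaemia genes (chromosome 16, 33056539 to 33060275, plus strand, mm9), had 245, 228 and 252 CPM against 380, 495 and 424 and fell by 0.84 ± 0.15 (adjusted p = 0.00851). Rpl13, a protein of the solvent side (chromosome 8, 125626250 to 125629144, plus strand, mm9), had 601, 641 and 681 CPM against 892, 1170 and 1363 and fell by 0.83 ± 0.16 (adjusted p = 0.0101). Neither gene overlapped between KO and Het, nor did KO overlap Sham, at 322 and 411 for Rpl35a and 910 and 1320 for Rpl13.

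Rpl37, a small zinc-binding protein, had 435, 624 and 508 CPM in HSC KO against 810, 1032 and 943 in Het and fell by 0.83 ± 0.17 (adjusted p = 0.0165). Its KO libraries lay only just below Sham, where 1 library had 635 and the other 754. Rpl23, at the face toward the small subunit, had 1242, 1195 and 1338 against 1734, 2203 and 2308 and fell by 0.73 ± 0.15 (adjusted p = 0.0231). Rpl17, which lines the exit tunnel, had 1139, 1168 and 1284 against 1544, 2116 and 2201 and fell by 0.71 ± 0.15 (adjusted p = 0.0258). Both stayed below Sham, at 1604 and 2540 for Rpl23 and 1736 and 2514 for Rpl17. Rpl36 had 384, 430 and 412 against 545, 688 and 653 and fell by 0.62 ± 0.15 (adjusted p = 0.0397). Rpl24, which forms a bridge to the small subunit, had 159, 164 and 178 against 214, 288 and 260 and fell by 0.61 ± 0.15 (adjusted p = 0.0429). In all 8 genes the lowest Het library was replicate 1, and even it lay above every KO library. Next by p, and not past the threshold, were Rpl29 at -0.58 ± 0.14 (adjusted p = 0.0544) and Rpl9 at -0.66 ± 0.17 (0.0597).

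The calls in HSC depended on single libraries, over all genes as well as the members. The count was 1 without HSC KO replicate 1 (0.0327% of all genes lower) or HSC Het replicate 2_3 (0.0373%), 4 without HSC KO replicate 2_3 (0.113%), 5 without HSC Het replicate 4 (0.248%) and 14 without HSC Het replicate 1 (0.674%). Without the pair of libraries with the fewest genes it was 0 (0.00935%). Rpl37a was called in 6 of 6 of the fits that left out 1 library, Rpl13, Rpl35a and Rpl37 in 4.

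**Figure D4:**
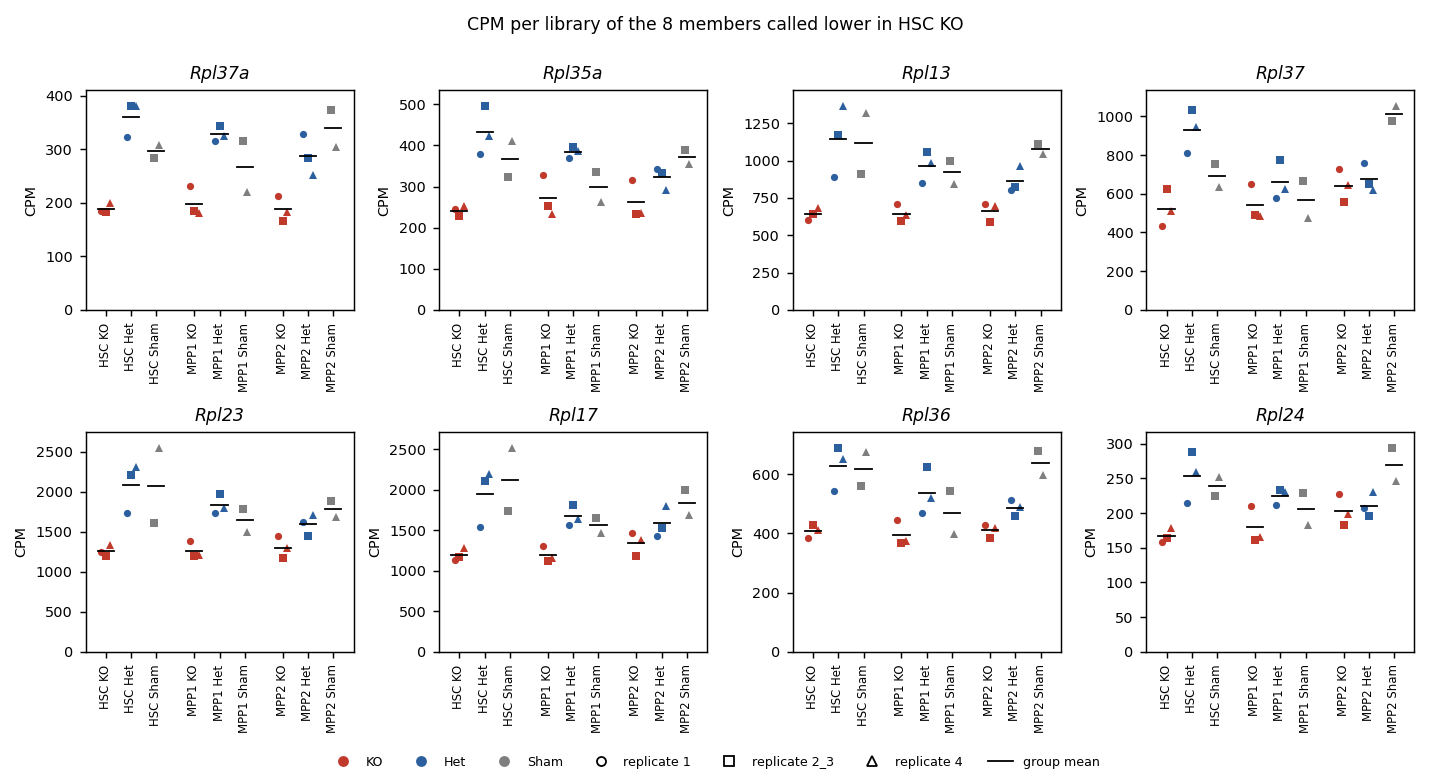
CPM of the 8 members called lower in HSC KO, per library (axes from 0), by population and arm, with marks for the replicate and a bar for the group mean. In HSC every KO library lies below every Het library in all 8 panels; for Rpl37a, Rpl13, Rpl23 and Rpl36 this holds in MPP1 and MPP2 too.

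The stalk and the 5S particle are given here for every HSC library. Rplp0, the base on which the stalk dimers sit, had 1758, 1839 and 1975 CPM in KO, 1548, 2017 and 2184 in Het and 1544 and 2375 in Sham. Its partner Rplp1 had 1371, 1692 and 1753 in KO, 1480, 2106 and 2154 in Het and 1481 and 2015 in Sham. Rplp2 had 2136, 1819 and 2172 in KO, 1835, 2335 and 2385 in Het and 1751 and 2693 in Sham. All 3 overlapped between the arms, with log2 changes of -0.04, -0.25 and -0.10 (adjusted p = 0.971, 0.511 and 0.875). Rpl5, which carries 5S rRNA to the subunit with Rpl11, had 2804, 2982 and 3501 CPM in KO, 3646, 4837 and 5524 in Het and 3353 and 5622 in Sham. KO lay below Het in each library but overlapped Sham, and the change of -0.59 (adjusted p = 0.0798) did not pass in HSC. Rpl11 had 572, 645 and 746 in KO, 664, 865 and 1028 in Het and 622 and 973 in Sham, and its arms overlapped (change -0.38, adjusted p = 0.285). On average over the populations Rpl5 fell by 0.40 ± 0.10 (adjusted p = 0.0118), while Rpl11 stood at -0.19 (adjusted p = 0.245).

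By role, the average comparison, in which 1.41% of all genes were called lower, called 0 of 4 stalk proteins (median -0.01) and 1 of 2 of the 5S particle. It called 3 of 9 around the peptidyl transferase centre and the subunit interface (median -0.24) and 2 of 5 tested of the exit tunnel (median -0.20). Of the other body proteins it called 11 of 21 (median -0.30). The 3 of the centre and interface were Rpl23, Rpl24 and Rpl10a, while Rpl3 and Rpl10, at the catalytic centre, stood at -0.24 (adjusted p = 0.115) and -0.01 (1.00). The 2 of the tunnel were Rpl17 and Rpl35, whereas Rpl4, whose loop reaches into the tunnel, stood at 0.04 (adjusted p = 0.822). Of the 9 members listed here as Diamond-Blackfan anaemia genes, a list that may be incomplete, 8 were tested and 3 fell, namely Rpl5, Rpl35 and Rpl35a. The 8 had average changes of -0.55 to -0.05. Whether roles differ from each other was not tested.

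In MPP1, 0 members passed, where 0.0233% of all genes were called lower. At an unadjusted p under 0.05, 14 members were lower and 0 higher, against 3.47% of all genes lower. DESeq2 called 3 members lower (0.247% of all genes) and limma 1 (0.0373%). In 15 of 41 members every KO library lay below every Het library, as in 13.2% of all genes. The median change was -0.23, and that of all genes -0.11. The smallest p belonged to Rpl37a, with 231, 184 and 181 CPM in KO against 315, 343 and 325 in Het (-0.72 ± 0.15, adjusted p = 0.0587), followed by Rpl13 at -0.58, Rpl23 at -0.54, Rpl9 at -0.57, Rpl35a at -0.50, Rpl17 at -0.49, Rpl7 at -0.50, Rpl36 at -0.44, Rpl38 at -0.45 and Rpl5 at -0.41. These 9 had adjusted p of 0.248 to 0.531, and in all 10 KO and Het did not overlap.

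In MPP2, 0 members passed as well, where 0.0373% of all genes were called lower. At an unadjusted p under 0.05, 2 were lower and 1 higher, against 1.56% and 4.06% of all genes. DESeq2 and limma each called 1 lower, against 0.13% and 0.0419% of all genes. The groups were apart, KO lower, in 7 of 41 members, as in 5.6% of all genes. The median change was -0.07, close to the -0.06 of all genes. Rpl37a again had the smallest p, with 213, 166 and 183 CPM in KO against 328, 283 and 252 in Het (-0.62 ± 0.15, adjusted p = 0.0612). Rpl13 stood at -0.38, Rpl35 at -0.28, Rpl35a at -0.30, Rpl23 at -0.29, Rpl36 at -0.25 and Rpl7 at -0.25. Rpl28, Rpl23a and Rpl27a stood above 0, at 0.31, 0.29 and 0.23. These 9 had adjusted p of 0.727 to 0.993.

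Across the 3 populations the members kept their order of change. Over the 39 well-counted members the log2 changes in HSC and MPP1 had a Pearson r of 0.92, those in HSC and MPP2 of 0.83, and those in MPP1 and MPP2 of 0.93. The 3 comparisons use different libraries, but the genes share their length, copies and counting. Whether the populations came from the same mice is not stated, and KO libraries numbered 1 and 2_3 deviated together across populations. Every KO library lay below every Het library in all 3 populations for 7 members, Rpl5, Rpl9, Rpl13, Rpl23, Rpl35, Rpl36 and Rpl37a, as for 0.238% of all genes. For 19 members, the stalk proteins Rplp0, Rplp1 and Rplp2 among them, this was so in none, as for 79.3% of all genes. The change in MPP2 minus that in HSC was above 0 for 40 of 41 members, with a median of 0.32 against -0.10 over all genes. The test of that difference called 0 members (7 higher at an unadjusted p under 0.05, against 3.60% of all genes; 0 by DESeq2 and by limma), where 0.0326% of all genes were called in either direction. The smallest p were those of Rpl37 (0.76 ± 0.23, adjusted p = 0.439), Rpl23a (0.64, 0.53) and Rpl24 (0.55, 0.573). Between MPP1 and HSC, and between MPP2 and MPP1, 0 members and 0% of all genes passed. At an unadjusted p under 0.05, 1 and 0 members were higher, against 1.23% and 1.77% of all genes. In both, 0 were lower, against 3.64% and 0.62%. The smallest p were those of Rpl37, Rpl23a and Rpl35a (0.55, 0.42 and 0.34) in the former and of Rpl9, Rpl24 and Rpl17 (0.33, 0.27 and 0.25) in the latter.

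A count ratio inside a library does not depend on how libraries are scaled to each other, so the members were also set against Rplp0, a choice made after the values were seen and given as a description. For every 100 counts of Rplp0, Rpl13 had 34.2 to 36.5 counts in the 9 KO libraries and 46.4 to 62.4 in the 15 Het and Sham libraries. Within MPP2 KO its 3 values lay between 34.3 and 34.5. Rpl37a had 9.05 to 11.6 counts in KO libraries and 12.99 to 20.9 in the others. The KO libraries of all 3 populations thus shared a narrow range, apart from every control, for both genes. Every KO library was below every Het and Sham library in 10 of 40 members (Rpl5, Rpl7, Rpl12, Rpl13, Rpl17, Rpl18, Rpl23, Rpl32, Rpl36 and Rpl37a) and above in 0, while 0.107% of all genes were below in this way. Rpl35a came close, with 11.7 to 16.5 against 16.2 to 24.5. Rpl28 (15.3 to 21.4 against 13.96 to 22.3) and Rpl4 (94.5 to 118 against 91.1 to 124) overlapped over the 9 KO and 15 other libraries, although in MPP2 KO lay above Sham in both, at 17.3 to 20.4 against 15.3 to 16.7 for Rpl28 and 113 to 118 against 92.5 to 107 for Rpl4. The count of members that separate fell to 6 with Rpl4 as the reference and to 2 with Rpl13a. The share of all genes was not taken for Rpl4 or Rpl13a, so these counts cannot be set against a background. Such a ratio shows that members changed unequally, not that Rplp0 did not change.

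**Figure D5:**
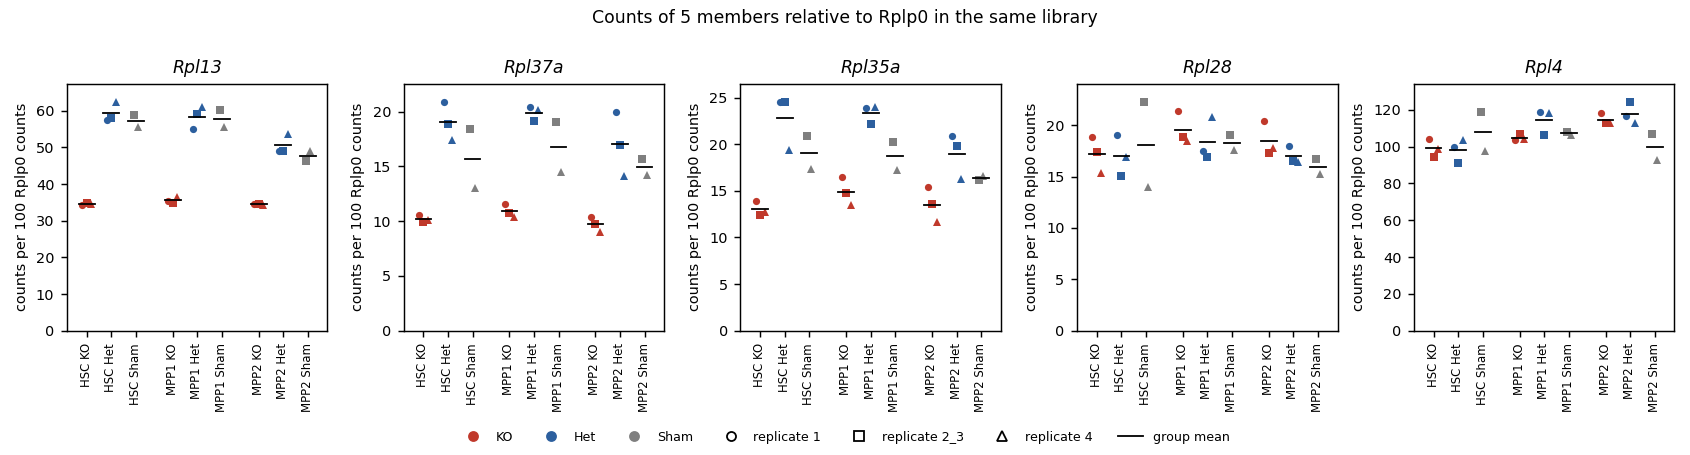
Counts of Rpl13, Rpl37a, Rpl35a, Rpl28 and Rpl4 per 100 counts of Rplp0 in the same library (axes from 0), by population and arm, with marks for the replicate and a bar for the group mean. For Rpl13 the 9 KO libraries sit at 34.2 to 36.5, below all 15 others, while for Rpl28 and Rpl4 the KO libraries lie among the others over all populations.

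Sham gave a second control, which shares the KO libraries with the comparisons above and differs from KO in tamoxifen as well as in alleles. In HSC, 7 of 41 members were lower in KO than in Sham and 0 higher, where 0.382% of all genes were called lower. They were Rpl17 (-0.83 ± 0.17, adjusted p = 0.00963), Rpl38 (-0.81 ± 0.19, 0.021), Rpl13 (-0.80 ± 0.17, 0.0122) and 4 others, at -0.72 to -0.60. The count was 1 without HSC KO replicate 1 (0.0748% of all genes lower) and 4 without HSC KO replicate 2_3 (0.347%). Leaving out a Sham library leaves 1, so only the median change is given for it. That median was -0.11 without HSC Sham replicate 4 and -0.60 without HSC Sham replicate 2_3. In HSC, 19 members had all KO libraries below both Sham libraries (10.2% of all genes), in MPP1 7 (20%) and in MPP2 27 (9.87%). MPP1 gave 0 calls (5 lower at an unadjusted p under 0.05, against 3.28% of all genes), where 0.0419% of all genes were called lower, and the smallest p were those of Rpl13 (-0.51), Rpl37a (-0.43) and Rpl17 (-0.39). In MPP2, Rpl37a alone passed, with 374 and 304 CPM in Sham (-0.85 ± 0.16, adjusted p = 0.00743), where 0.14% of all genes were called lower. At an unadjusted p under 0.05, 22 of 41 members were lower there, against 1.99% of all genes, and the median change was -0.40.

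Het and Sham did not separate by test in any population: 0 members and 0% of all genes passed in HSC, 0 members and 0% in MPP1, and 0 members and 0% in MPP2. At an unadjusted p under 0.05, 1 member was higher in HSC (3.88% of all genes), 2 were higher in MPP1 (0.517%) and 12 were lower in MPP2 (2.56%). The smallest p were those of Rpl37 (0.42), Rpl37a (0.28) and Rpl6 (-0.28) in HSC, of Rpl38 (0.47), Rpl35a (0.37) and Rpl35 (0.28) in MPP1, and of Rpl37 (-0.59), Rpl12 (-0.53) and Rpl27 (-0.50) in MPP2. In MPP2 all 41 members had a log2 change below 0, with a median of -0.27 against 0.14 over all genes, and 25 had every Het library below both Sham libraries, as in 11.9% of all genes. The median of KO against Het in MPP2, which uses the same Het libraries, was -0.07.

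Among Het libraries, MPP2 had lower levels than HSC for 3 members, where 8.37% of all genes were called lower: Rpl9 fell by 0.59 ± 0.17 (adjusted p = 0.0135), Rplp1 by 0.52 ± 0.17 (0.0287) and Rpl23a by 0.43 ± 0.15 (0.0476). That share is near the background. The count was 12 without HSC Het replicate 1 (9.48% of all genes lower) and 0 without HSC Het replicate 2_3 (6.56%) or 4 (7.18%). It was also 0 without MPP2 Het replicate 1 (6.07%), and 1 without MPP2 Het replicate 2_3 (8.04%) or 4 (6.77%). MPP1 and HSC differed in 0 members and 0% of all genes were called lower. At an unadjusted p under 0.05, 1 member was lower, against 3.28% of all genes. It was Rpl37 at -0.49, followed by Rpl12 and Rpl13, both at -0.25. MPP2 and MPP1 differed in 0 members, where 4.26% of all genes were called lower. At an unadjusted p under 0.05, 1 member was lower and 1 higher, against 8.79% and 10.1% of all genes. They were Rpl9 at -0.39 and Rpl27 at 0.33, followed by Rpl35a at -0.25.

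Proximal promoters were read from RefSeq (GRCm38.p6) for the members on which the results turn, with 60 bases before and 15 after the annotated start. Transcripts of ribosomal proteins classically begin within a run of pyrimidines, the terminal oligopyrimidine tract through which their translation is controlled. For Rpl35a, 1 of 3 listed starts is shown, and the Rpl27a window ends inside its run. Capitals mark a run of at least 8 pyrimidines that overlaps the 20 bases on either side of the start. Rpl37a, Rpl13 and Rpl35a had the largest average falls, and Rpl28, Rplp0 and Rpl27a the highest average changes (0.18, 0.09 and 0.07, none past the threshold).
Rpl37a, chr1:72711200-72711274, plus strand: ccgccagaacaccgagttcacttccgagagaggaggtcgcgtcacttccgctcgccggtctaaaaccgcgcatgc
Rpl13, chr8:123102290-123102364, plus strand: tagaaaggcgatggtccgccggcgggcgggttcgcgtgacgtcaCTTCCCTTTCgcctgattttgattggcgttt
Rpl35a, chr16:33056422-33056496, plus strand: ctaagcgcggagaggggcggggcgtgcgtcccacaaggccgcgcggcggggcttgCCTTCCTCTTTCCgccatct
Rpl28, chr7:4792905-4792979, plus strand: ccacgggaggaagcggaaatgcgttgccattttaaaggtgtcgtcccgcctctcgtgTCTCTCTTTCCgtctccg
Rplp0, chr5:115559407-115559481, plus strand: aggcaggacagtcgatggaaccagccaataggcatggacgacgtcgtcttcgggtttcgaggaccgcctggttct
Rpl27a, chr7:109519135-109519209, plus strand: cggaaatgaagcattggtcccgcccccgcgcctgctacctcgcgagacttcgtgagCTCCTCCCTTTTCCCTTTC

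Runs and their absence occur on both sides: Rpl13, Rpl35a, Rpl28 and Rpl27a hold one of 10, 13, 11 and 20 bases (19 of the 20 are in the printed window), with runs of 4 and 5 at the other starts of Rpl35a, while the longest in Rpl37a and Rplp0 is 5 and 7. The RefSeq table held 36 promoters of 31 members, from 250 bases before to 50 after the start. A run of at least 8 was found in 55.6% of them and in 21.2% of all 32851 promoters. The ETS motif CTTCCGG, on either strand, was in 36.1% of the members' promoters and 8.86% of all. GCCATCTT, the YY1 motif, was in 11.1% and 2.75%, the palindromic NRF1 motif in 5.56% and 0.971%, TATAAA in 2.78% and 13.6%, and the SP1 motif GGGGCGGGG in 11.1% and 11.4%. The YY1 and SP1 shares each rest on 2 of 31 members, since the 3 overlapping starts of Rpl35a count singly. A match is a description of these letters, not a site. The starts are those annotated, and the starts used in these cells were not measured, so a short run here does not show that a transcript lacks the tract. Of the 29 well-counted members with a promoter entry, 6 of 11 with a longest run under 8 bases, 4 of 8 with one of 9 to 11 and 2 of 10 with one of 13 to 21 were lower on average, with medians of -0.30, -0.30 and -0.15. Over these 29 genes the run's length and the average change had a Pearson r of 0.25. Of 11 members with the ETS motif 4 were lower (median -0.19), and of 18 without it 8 (median -0.23). Over all genes, 1.41% were called lower on average.

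Other properties of the genes ran weakly with the change. Over the 38 well-counted members in the mm9 annotation, Pearson's r with the average change was 0.12 for transcript length, 0.22 for coding length, 0.15 for the number of exons and -0.10 for the share of windows copied elsewhere in the genome. Over 39 members it was 0.13 for the level per kilobase in HSC Het. The 41 members with coordinates lie on 16 chromosomes, and 18 of them hold an annotated small nucleolar RNA. Of these 18 hosts, 7 were lower on average (median -0.16), and of the 22 tested members without one, 10 (median -0.28). Over all genes the share was 1.41%.

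Rpl36a and Rpl22l1, 2 of the 11 listed 60S genes outside the members, were lower in KO on average, where 1.41% of all genes were. Of the 11, 0 were higher (median -0.04). Rpl22l1, a paralogue of Rpl22, stood at -1.11 ± 0.13 (adjusted p = 2.56e-06) and Rpl36a, an X-linked 60S protein, at -0.81 ± 0.09 (7.7e-07). In HSC Rpl36a had 276 to 325 CPM in KO against 547 to 632 in Het, and Rpl22l1 had 16.4 to 24.4 against 38.6 to 45.9. Rpl7l1 was next by p, at -0.24 (adjusted p = 0.0649). Of 32 proteins of the small subunit, 12 were lower and 0 higher (median -0.05), against 1.41% of all genes lower. The 12 were led by Rps15 (-0.53), Rps14 (-0.68) and Rps3 (-0.58), with adjusted p of 8.45e-05 to 0.000234. The 39 listed factors of 60S assembly and export found in the files had 6 higher and 0 lower (median 0.22), where 4.32% of all genes were called higher. Pa2g4 (0.36), Mrto4 (0.40) and Ddx18 (0.36) had the smallest p. With RLE scaling, or TMM without ribosomal protein genes, 2 of the assembly factors were higher, against 2.95% and 3.25% of all genes. The small subunit again had 12 lower, against 1.63% and 1.6% of all genes. Mdm2 was higher on average (0.37 ± 0.08, adjusted p = 0.00421), while Trp53 at 0.21 (adjusted p = 0.245) and Mdm4 at -0.01 (0.995) did not pass.

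Of 7 marker lists of other cells, the summed level did not overlap between KO and Het for 1 list in HSC (megakaryocyte, KO higher), 3 in MPP1 (B cell, erythroid, and stroma and endothelium, KO lower) and 3 in MPP2 (erythroid, neutrophil, and stroma and endothelium, KO lower). With the populations taken singly, 1 of 10 megakaryocyte markers was called higher in HSC KO against Het, and 0 markers of these lists were called in MPP1 or MPP2. All 10 megakaryocyte markers were detected, with a summed level of 1241 to 1690 CPM in HSC KO against 556 to 813 in HSC Het and 626 to 641 in HSC Sham; in MPP1 it was 1101 to 1947 against 653 to 1689, and in MPP2 669 to 1775 against 780 to 1845. The 13 neutrophil markers, all detected, summed to 96.8 to 170 CPM in HSC KO and 61.7 to 599 in HSC Het, and in MPP2 to 124 to 177 in KO and 212 to 3556 in Het. Of 12 erythroid markers, Hba-a1, Hba-a2 and Hbb-b2 were at 0 in every HSC group; the sum was 24.2 to 33.6 CPM in HSC KO against 29.0 to 300.4 in HSC Het, and 209 to 388 in MPP2 KO against 475 to 731 in MPP2 Het. The summed B cell, macrophage and T and NK cell markers (in MPP2 Sham, Blk and Ncr1 were at 0) reached at most 60.5 CPM in any library, and those of stroma and endothelium (11 of 11) were at 126 to 177 in HSC KO and 133 to 197 in HSC Het. Their part in the members' changes was not tested, and fewer cells of a type cannot be told apart from less RNA per cell.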

How the data were processed

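RNA from sorted cells was made into SMARTer stranded libraries after ribosomal RNA depletion and read as 50-base pairs, per the labels' protocols. The submitters' processing notes name mm9 and, with no role given, TopHat2 2.0.9 and Bowtie 1.0.0 beside featureCounts. They also list Trimmomatic 0.33, FastQC, R 3.1.2 and edgeR. The settings for strand and for reads with several matches are not given in the sources used here. The authors deposited whole read counts per gene for each library, with a gene length beside them (a unit listed as other), and a matrix of normalized signal, used only as an alternative.

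From the counts, edgeR 4.0.16 in R 4.3.3 fitted 9 groups (population and arm) in 1 quasi-likelihood model with TMM scaling and a filterByExpr minimum of 10. Genes tested numbered 21456, and p-values are two-sided and Benjamini-Hochberg adjusted over all of them. A call needs an adjusted p under 0.05. Standard errors are the log2 change divided by the root of F. Counts covered 18823970 to 53196620 reads per library, so that the spread between pools, not counting error, limits most members. The fit was tested on simulated data. Its power and error rate at the spread between these pools were not tested. Replicates were compared for duplication, and none was found.

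The text names the members called in a comparison of KO with Het, those of smallest p up to 10 where fewer passed, the 3 largest changes or 3 smallest p elsewhere, and Rplp0, Rplp1, Rplp2, Rpl5 and Rpl11 always. The members and lists were chosen with earlier results of these data known. Alternatives were RLE scaling, TMM without ribosomal protein genes, other filters, DESeq2 1.42.0, limma 3.58.1, a replicate block, each population alone, the deposited matrix, both controls together, leaving out libraries and, added after the values were seen, a random block of same-numbered libraries of an arm, other reference genes and the scaling of other lists. Copies were searched on mm9, and promoters came from RefSeq, GRCm38.p6.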

Additional observations from a re-analysis of the deposited data

How the results depend on the processing

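In the alternatives run, 0 members were called higher in KO. Members called in the main fit kept their sign in the comparison that called them. The signs of members not called were not followed. Counts of members called lower are given in the order KO against Het in HSC (8), MPP1 (0) and MPP2 (0), KO against Sham in HSC (7) and MPP2 against HSC in Het (3). They were 15, 1, 1, 11 and 8 with RLE scaling, where 0.41%, 0.028%, 0.0513%, 0.461% and 9.07% of all genes were lower. DESeq2 gave 17, 3, 1, 17 and 8. The deposited matrix in limma, which holds fewer genes, gave 23, 12, 2, 27 and 33, where 2.18%, 0.353%, 0.115%, 3.24% and 18.1% of its genes were lower. With DESeq2 the shares of all genes were 1.19%, 0.247%, 0.13%, 0.993% and 10.2%. TMM without ribosomal protein genes gave 1 in MPP1 (0.028% of all genes lower), 13 against Sham (0.569%) and 1 between populations (7.2%). limma-trend gave 1 in MPP1 (0.0373%), 1 in MPP2 (0.0419%) and 5 between populations (8.65%). Each population fitted alone gave 4 in HSC (0.42%) and 3 against Sham (0.394%). Het and Sham together as control gave 15, 1 and 1, where 0.867%, 0.149% and 0.121% of all genes were lower. Without the 2 HSC libraries with fewest genes the counts were 0 in HSC (0.00935%), 1 against Sham (0.103%) and 0 between populations (6.89%). The average over populations (17) became 26 with the matrix (4.08%) and 11 without those 2 libraries (0.711%). With 1 library left out, the counts ran from 1 to 14 in HSC (0.0327% to 0.674% of all genes). Between populations they ran from 0 to 12 (6.07% to 9.48%), and on average from 14 to 19 (0.776% to 2.5%). Against Sham they ran from 1 to 6 with a KO library left out (0.0748% to 0.347%).

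With a replicate block the counts were 15 in HSC, 1 in MPP1, 1 in MPP2 and 6 between populations, where 0.9%, 0.0746%, 0.0559% and 9.13% of all genes were lower. Whether the numbers pair KO with Het is not settled. Deviations of same-numbered KO and Het libraries correlated at -0.34 to 0.05 in HSC, 0.02 to 0.07 in MPP1 and 0.006 to 0.33 in MPP2. Some libraries, but not every one, correlated best with their own number. Within an arm, same-numbered libraries of different populations correlated at -0.03 to 0.51. With them as a random block, 13 members were lower on average (0.55% of all genes).

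The median change with the matrix was -0.58 in HSC, -0.43 in MPP1, -0.41 on average, -0.64 against Sham in HSC and -0.58 between MPP2 and HSC. In MPP2 it was -0.25 with both controls and -0.17 to 0.015 with 1 library left out, above 0 without MPP2 KO replicate 2_3. Against Sham in HSC it ran from -0.60 to -0.11. Het against Sham in HSC (0.03) changed sign: -0.077 with TMM without ribosomal protein genes, -0.00875 with no filter, -0.00943 with 1 CPM in 3 libraries, -0.044 alone, -0.052 with the matrix, -0.0088 without the 2 HSC libraries, and -0.23 to 0.26 with 1 library left out. Members apart per count of Rplp0 (10, where 0.107% of all genes were) numbered 6 per count of Rpl4 and 2 per count of Rpl13a. The share of all genes was not taken for Rpl4 or Rpl13a. The causes were not tested.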
